A study of Homo sapiens with 8 samples.

Results

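The genes described here encode growth factors: the EGF-family ligands amphiregulin (AREG), epiregulin (EREG), heparin-binding EGF-like growth factor (HBEGF), transforming growth factor alpha (TGFA) and neuregulin 1 (NRG1), the PDGF chains PDGFA and PDGFB, TGF-beta 1 (TGFB1), the activin beta A chain (INHBA) and IGF1. They were selected by name, as the rows of an expression table whose Ensembl identifier carries 1 of these 10 symbols. 9 of the 10 had a row among the 30233 genes of the table, 7 were expressed highly enough to be tested, and TGFA and PDGFB lay below that limit. No row matched IGF1, which was not analysed here.

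Both groups were THP-1 cells, a human monocytic leukaemia line with the genotype label WT, made macrophage-like with PMA (a phorbol ester) at 100 ng/ml for 24 h and rested without it for 24 h. The 4 libraries of the LPS group came from cells given LPS, a bacterial endotoxin, at 100 ng/mL, and the 4 libraries of the LPS + 3-HPA group came from cells given the same LPS and 3-hydroxypropionic acid (3-HPA) at 5 mM. 3-HPA was given together with LPS per the treatment protocol, whereas the design text calls it a pretreatment, and how long the cells were exposed was not given in the labels read here. Every comparison below is therefore 3-HPA against no 3-HPA in PMA-differentiated, LPS-stimulated cells of a single line. Neither resting cells nor cells with 3-HPA alone were analysed here. Nothing says that the 4 libraries of a group are separate cultures, and p-values therefore measure how these libraries spread, which may be technical.

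Most growth factors of the EGF family are made as membrane-anchored precursors. ADAM metalloproteases cut them free at the cell surface, and the released ligand binds receptors of the ERBB family, which signal through RAS and MAP kinases and induce their own inhibitors. PDGF chains pair into dimers that act on mesenchymal cells. TGF-beta 1 and activin A are released from larger precursors by furin-type proteases and signal through paired serine/threonine kinase receptors to SMAD proteins. Macrophages use these factors in tissue repair and fibrosis.

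Depth, recovered from the deposited FPKM (fragment counts divided by gene length and library size), was 35647756 to 41859879 reads per library, so that 1 read in a gene of 2 kb was worth at most 0.014 FPKM. Groups were compared with limma on log2(FPKM + 1), with Benjamini-Hochberg adjustment over the 12499 genes that reached 0.5 FPKM in at least 4 libraries; fold changes are LPS + 3-HPA minus LPS, and because 1 is added to each value they understate the change of low genes. Of these genes, 1967 were higher and 3495 lower with 3-HPA at an adjusted p under 0.05, and the median change over all of them was -0.047. With TMM scaling, which sets the bulk of genes level, the split was 2596 higher and 2521 lower. All 10 genes of a macrophage marker list had a row and 9 had a mean of at least 1 FPKM. Their summed level was 1554 to 1600 FPKM in the LPS libraries and 1923 to 1987 FPKM with 3-HPA, with 7 of 9 tested markers higher and 1 lower. CD14, the LPS co-receptor, went from 133 to 228 FPKM (log2 fold change 0.77, limma adjusted p = 3.99e-08) and CSF1R, the receptor for macrophage colony-stimulating factor, from 286 to 401 FPKM (0.49, limma adjusted p = 3.69e-07). Summed T and B cell markers stayed at or below 0.461 FPKM and CDH1, the epithelial marker with a row among 5 listed, at or below 0.00923 FPKM in every library. Fibroblast markers (4 of 5 with a row) summed to 1.95 to 2.29 FPKM in LPS and 3.66 to 4.03 FPKM with 3-HPA, and endothelial markers (4 of 5 with a row) to 3.83 to 4.35 and 7.42 to 8.70 FPKM, most of it from COL1A1 (2.08 to 3.84 FPKM) and from PECAM1 (4.00 to 8.11 FPKM), which myeloid cells also express. The part of these markers in the growth factor results was not tested. In bulk RNA of this kind, a change in the number of cells of a kind and a change in RNA per cell cannot be told apart.

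Of the 7 tested growth factor genes, 6 were higher with 3-HPA (NRG1, AREG, PDGFA, HBEGF, INHBA and TGFB1), none was lower, and EREG did not pass the test. Among all tested genes 43.7% were called in either direction, with 15.7% of all tested genes higher (20.8% with TMM scaling) and 28.0% lower (20.2% with TMM scaling). The median change of the 7 was 0.41 on the log2 scale, beside the -0.047 of all tested genes. In each of the 6 every 3-HPA library lay above every LPS library, which in either direction held for 42.2% of all tested genes. The 6 genes kept their call and direction under all 17 alternatives tried. EREG passed under none of them, and its estimate fell below 0 with equal FPKM totals (-0.0015) and without LPS library 2 (-0.017). By FPKM, which depends on the gene lengths used, TGFB1 was the most abundant of the genes in both groups, followed by PDGFA and HBEGF. In LPS the order went on with INHBA, NRG1, AREG, EREG, TGFA and PDGFB, where the libraries of NRG1 overlapped those of AREG and those of TGFA overlapped those of PDGFB. With 3-HPA, NRG1 and AREG stood above INHBA and no neighbours in the order overlapped.

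**Figure D1:**
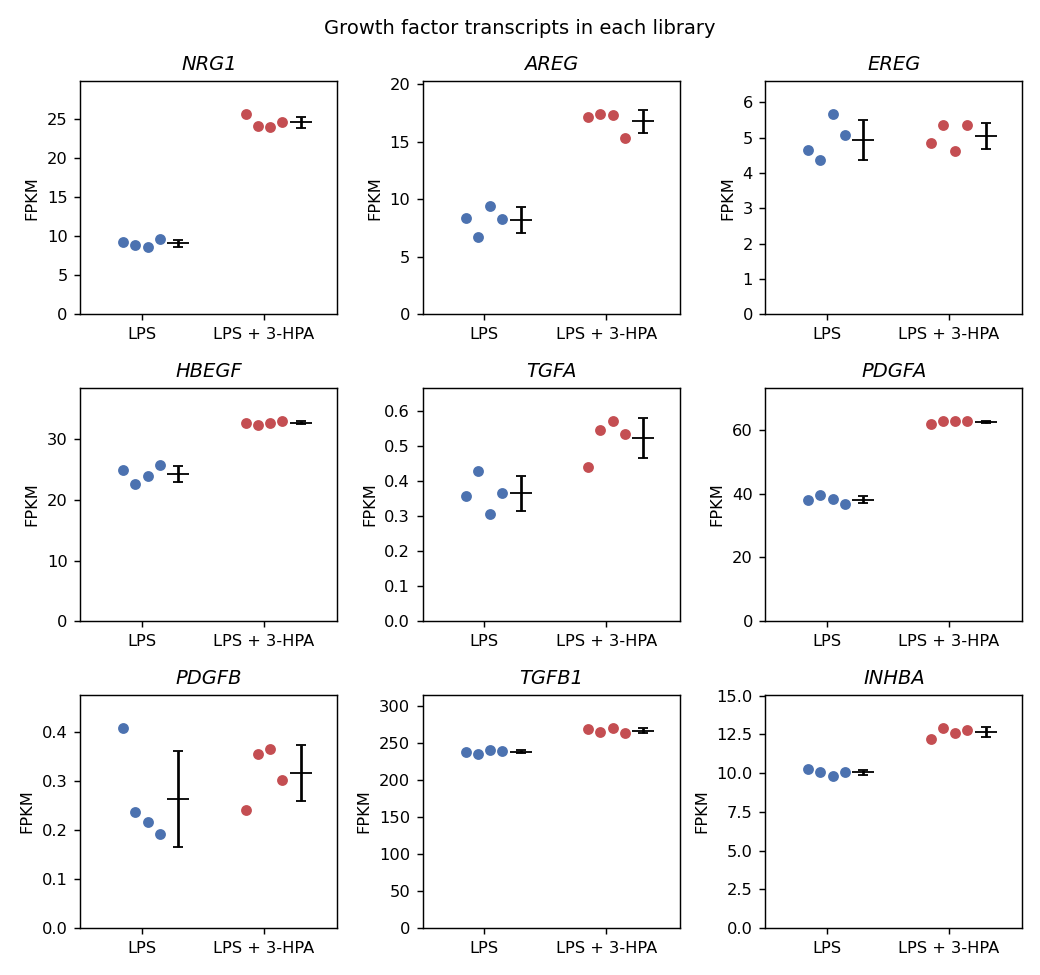
Expression of the 9 growth factor genes in each library, in FPKM on linear axes that start at 0. Points are single libraries, the horizontal line and bar beside them are the mean and SD of 4 libraries. The 3-HPA libraries lie above the LPS libraries for NRG1, AREG, HBEGF, TGFA, PDGFA, TGFB1 and INHBA, and the groups overlap for EREG and PDGFB.

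AREG (ENSG00000109321, chromosome 4, 74445134 to 74455009, plus strand) and EREG (ENSG00000124882, chromosome 4, 74365143 to 74388751, plus strand) lie side by side, with starts 79.991 kb apart. Both products bind EGFR. Because AREG changed and EREG did not pass the test, the 250 bases upstream of each start are shown, from RefSeq on GRCh38.p14, 5′ to 3′ on the gene's strand. Capitals mark the cAMP response element TGACGTCA or its shorter core TGACG, and the TATA box TATAAA. The AREG window is chr4:74444886-74445135 (plus strand) and the EREG window chr4:74364895-74365144 (plus strand).
AREG: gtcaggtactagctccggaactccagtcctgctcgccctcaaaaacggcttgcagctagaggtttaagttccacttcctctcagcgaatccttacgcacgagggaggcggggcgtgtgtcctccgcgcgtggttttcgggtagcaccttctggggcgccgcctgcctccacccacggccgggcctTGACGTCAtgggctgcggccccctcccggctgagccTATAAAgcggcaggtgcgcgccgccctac
EREG: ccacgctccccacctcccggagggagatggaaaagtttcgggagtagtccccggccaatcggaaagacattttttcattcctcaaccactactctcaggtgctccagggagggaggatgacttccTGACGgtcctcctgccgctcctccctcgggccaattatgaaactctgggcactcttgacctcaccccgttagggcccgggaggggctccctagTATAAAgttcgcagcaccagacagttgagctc
The AREG window held the full element TGACGTCA starting 65 bases upstream of the start, and this match contains both core matches found there, 1 on each strand. EREG held no full element in this window and a core TGACG 125 bases upstream. TATAAA began 29 bases upstream in AREG and 32 bases upstream in EREG. Among 35116 RefSeq promoter windows of the same length, searched on both strands, 1.65% held the full element, 21.2% the core and 10.7% TATAAA. Whether any of these elements plays a part in the levels of AREG or EREG was not tested.

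Expression of AREG was 8.35, 6.73, 9.43 and 8.31 FPKM in LPS libraries 1 to 4, against 17.1, 17.4, 17.3 and 15.3 FPKM in 3-HPA libraries 1 to 4. The groups did not overlap, although 3-HPA library 4 was lower than the other 3. The mean went from 8.20 ± 1.11 to 16.8 ± 0.987 FPKM (SD, n = 4 each), 2.05-fold, or 0.96 on the log2 scale (SE 0.084, 95% interval 0.77 to 1.15, limma adjusted p = 1.98e-05, rank 69 of 12499). Between 456 and 1152 reads per library stood behind these values. EREG, in contrast, gave 4.65, 4.37, 5.65 and 5.06 FPKM in the LPS libraries and 4.84, 5.36, 4.63 and 5.36 FPKM in the 3-HPA libraries. The 3-HPA libraries all lay within the range of the LPS libraries. The EREG means were 4.93 ± 0.558 and 5.05 ± 0.370 FPKM (SD, n = 4 each), or 0.03 on the log2 scale (SE 0.071, 95% interval -0.13 to 0.19, limma adjusted p = 0.773), and 943 to 1243 reads per library. The upper bound of that interval lies below the lower bound for AREG.

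The ratio of AREG to EREG FPKM, a comparison chosen after these values were seen, was 1.80, 1.54, 1.67 and 1.64 in the LPS libraries and 3.54, 3.25, 3.74 and 2.86 in the 3-HPA libraries. All 4 ratios with 3-HPA were above all 4 without. On the log2 scale the means were 0.73 ± 0.091 and 1.74 ± 0.17 (SD, n = 4 each), a difference of 1.01 with a two-sided exact permutation p = 0.0286, the smallest that 70 regroupings of 4 and 4 libraries allow.

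The surrounding 1 Mb on either side of the AREG and EREG starts held 25 genes with a row, 12 of them tested. The chemokine genes on 1 side and AREG were higher, whereas the tested genes on the other side were lower. In all 8 were higher, 3 were lower, and EREG alone did not pass, where 15.7% of all tested genes were higher and 28.0% lower. The 6 tested chemokine genes, whose products attract neutrophils, were all higher: CXCL8 went from 3350.2 to 6406 FPKM (log2 fold change 0.94), CXCL6 from 3.74 to 8.41 (0.99), CXCL1 from 79.3 to 225 (1.49), CXCL5 from 0.362 to 2.19 (1.23), CXCL3 from 70.4 to 202 (1.50) and CXCL2 from 39.4 to 78.0 FPKM (0.97). Their limma adjusted p-values ran from 2.21e-09 to 1.70e-06. CXCL1, CXCL2 and CXCL3 are close copies of each other, so how reads were split among them is uncertain. MTHFD2L, for a mitochondrial folate enzyme, changed by 0.22 (limma adjusted p = 0.0381). Beyond AREG, betacellulin (BTC), PARM1 (-0.46, limma adjusted p = 1.01e-06) and the non-coding LINC02562 (-0.63, limma adjusted p = 0.0089) fell.

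**Figure D2:**
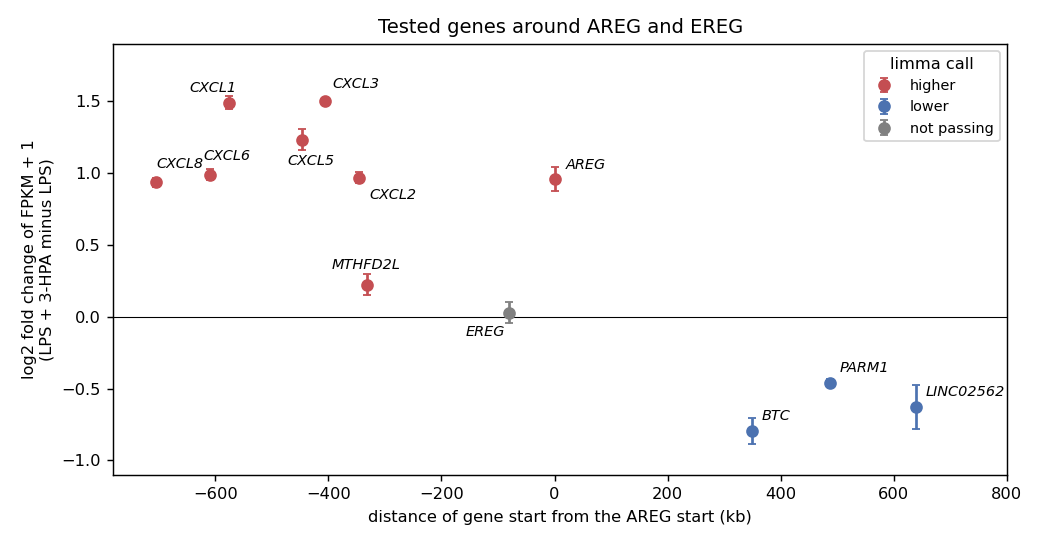
Change of the 12 tested genes within 1 Mb of the AREG and EREG starts. The x axis is the distance of each gene's start from the AREG start in kb, the y axis the log2 fold change of FPKM + 1 (LPS + 3-HPA minus LPS), and bars are standard errors. Chemokine genes at negative distances and AREG lie above 0, EREG lies at 0.03, and BTC, PARM1 and LINC02562 lie below 0.

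NRG1 (ENSG00000157168, GRCh38 chromosome 8, 31639386 to 32767959, plus strand) showed the largest fold change of the tested growth factor genes. Its product is a ligand of ERBB3 and ERBB4. The LPS libraries 1 to 4 held 9.28, 8.91, 8.63 and 9.60 FPKM and the 3-HPA libraries 1 to 4 held 25.6, 24.1, 24.0 and 24.7 FPKM. The lowest 3-HPA library was well above the highest LPS library. Means were 9.10 ± 0.421 and 24.6 ± 0.753 FPKM (SD, n = 4 each), a 2.70-fold difference, or 1.34 on the log2 scale (SE 0.035, 95% interval 1.26 to 1.42, limma adjusted p = 1.64e-08). By size of increase NRG1 stood at rank 17 of 12499 genes. Recovered reads ran from 7098 to 20788 per library over a recovered gene length of 21372 bases, so counting error was small.

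HBEGF (ENSG00000113070, chromosome 5, 140332843 to 140346631, minus strand), whose product binds EGFR and ERBB4, had the highest FPKM of the EGF-family ligand transcripts. LPS libraries 1 to 4 gave 25.0, 22.6, 23.9 and 25.7 FPKM and 3-HPA libraries 1 to 4 gave 32.7, 32.4, 32.7 and 33.0 FPKM. The 3-HPA libraries were close to each other and above all LPS libraries. The difference was 1.35-fold, from 24.3 ± 1.33 to 32.7 ± 0.237 FPKM (SD, n = 4 each), or 0.41 on the log2 scale (SE 0.035, 95% interval 0.33 to 0.49, limma adjusted p = 1.58e-05). FPKM divides by gene length, recovered as 2990 bases for HBEGF and 21372 bases for NRG1. HBEGF had 2755 to 3912 reads per library and NRG1 had 7098 to 20788. The order of these 2 genes therefore depends on the lengths used.

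TGFA (ENSG00000163235, chromosome 2, 70447280 to 70554193, minus strand), for another EGFR ligand, was present at a low level and was not tested. Its values were 0.358, 0.429, 0.307 and 0.364 FPKM in LPS libraries 1 to 4 and 0.438, 0.544, 0.571 and 0.534 FPKM in 3-HPA libraries 1 to 4, from 58 to 108 reads. The groups did not overlap, but the gap between the highest LPS library and the lowest 3-HPA library was small. In limma voom on the recovered reads of all genes without a filter, added after the data were seen, the log2 change was 0.51 (adjusted p = 0.0786, SE 0.19), and limma on log2(FPKM + 1) without a filter gave an adjusted p of 0.103. TGFA therefore passed in neither fit.

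Set against each other within a library, the 5 EGF-family ligand transcripts shifted in composition. Their summed level was 47.6, 43.1, 48.0 and 49.0 FPKM in the LPS libraries and 80.8, 79.8, 79.2 and 78.9 FPKM in the 3-HPA libraries, a 1.70-fold difference of the means (46.9 ± 2.64 and 79.7 ± 0.837 FPKM, SD, n = 4 each). NRG1 made up 19.4 ± 1.10% of the sum in LPS and 30.9 ± 0.753% with 3-HPA, 11.4 points more. HBEGF went from 51.8 ± 1.28% to 41.1 ± 0.606%, a drop of the share while its level rose. The EREG share went from 10.5 ± 0.885% to 6.34 ± 0.487%. For these 3 shares the groups did not overlap, and each gave a two-sided exact permutation p of 0.0286, or 0.0476 adjusted over the 5 shares. The AREG share, 17.4 ± 1.68% and 21.1 ± 1.14%, had an exact permutation p of 0.0571 (adjusted 0.0714), and the TGFA share, 0.782 ± 0.151% and 0.656 ± 0.0777%, one of 0.229. LPS library 3, at 19.7%, was the LPS library whose AREG share lay within the 3-HPA range of 19.4 to 21.9%. Without it the groups no longer overlapped. The AREG shares then differed by 4.37 points with an exact permutation p of 0.0286, the smallest that 35 regroupings allow. That library was left out for its own value, so this p adds no support. The other 7 of 8 leave-outs kept the result of all libraries, with an exact permutation p of up to 0.0857. The 5 shares sum to 100% in each library, so they are not independent of each other. They rest on FPKM, so their sizes depend on the gene lengths used. BTC, at a mean of 2.36 FPKM in LPS and 0.944 FPKM with 3-HPA, was not part of the sum.

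**Figure D3:**
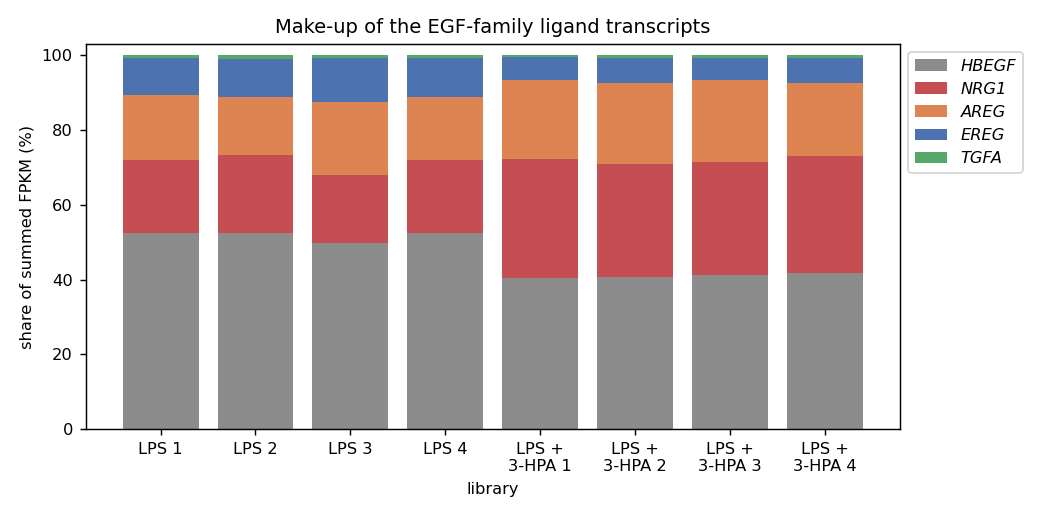
Make-up of 5 EGF-family ligand transcripts (BTC not included), as the share of each of the 5 genes in their summed FPKM (y axis, percent) in each of the 8 libraries (x axis). HBEGF fills 49.9 to 52.6% of the LPS bars and 40.5 to 41.8% of the 3-HPA bars, and NRG1 18.0 to 20.7% and 30.2 to 31.7%.

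Among 6 other EGF-family ligands, only BTC passed the filter, and it was lower with 3-HPA. BTC encodes betacellulin, a ligand of EGFR and ERBB4. It gave 2.36, 2.16, 2.57 and 2.33 FPKM in LPS and 0.993, 1.18, 0.624 and 0.980 FPKM with 3-HPA, with no overlap. The mean was 2.50-fold lower, or -0.79 on the log2 scale (SE 0.088, limma adjusted p = 9.18e-05). EGF, EPGN, NRG2, NRG3 and NRG4 lay below the filter.

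All 4 receptors of the family were below the filter, so none was tested. Mean levels in LPS and with 3-HPA were 0.0427 and 0.0393 FPKM for EGFR, 0.486 and 0.332 FPKM for ERBB2, 0.0119 and 0.0255 FPKM for ERBB3 and 0.303 and 0.236 FPKM for ERBB4. All 4 lay below every tested growth factor gene in both groups. In voom on the recovered reads without a filter ERBB2 passed, at -0.55 on the log2 scale (SE 0.14, adjusted p = 0.00992), and the other 3 did not (adjusted p from 0.160 to 0.944), where 17.9% of all genes passed. In limma on log2(FPKM + 1) without a filter ERBB2 did not pass (adjusted p = 0.0619).

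Of 6 genes for the release of EGF-family ligands, 4 were higher and none lower. For this and the lists below, the shares over all tested genes were 15.7% higher and 28.0% lower. RHBDF1, for the inactive rhomboid protein iRhom1, which escorts the sheddase ADAM17, held 5.16, 5.13, 5.23 and 5.40 FPKM in LPS and 10.5, 10.6, 11.5 and 10.9 FPKM with 3-HPA. The groups were far apart, by 0.93 on the log2 scale (SE 0.033, limma adjusted p = 6.52e-08). RHBDF2, for the related iRhom2 that serves the same role in myeloid cells, went from 85.0 to 94.4 FPKM (0.15, limma adjusted p = 4.58e-04), and the sheddase ADAM10 from 12.9 to 14.8 FPKM (0.18, limma adjusted p = 1.72e-04). FRMD8, which stabilises the iRhom complex, changed by 0.091 (limma adjusted p = 0.0155), a call lost with equal FPKM totals (adjusted p = 0.0914). ADAM17 itself, at 22.8 and 23.0 FPKM, did not pass (limma adjusted p = 0.677), but passed as higher with TMM scaling (0.071, limma adjusted p = 0.0279). With equal FPKM totals the counts of this list were 3 higher and 1 lower, and with TMM scaling 5 higher and none lower.

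Among 17 genes of the adaptors and the RAS-MAP kinase relay, 4 were higher, 3 were lower and 10 did not pass. In either direction 43.7% of all tested genes were called. The kinase ERK1 (MAPK3) went from 16.9 to 23.3 FPKM (log2 fold change 0.44, limma adjusted p = 6.68e-05). PTPN11, for the phosphatase SHP2, rose by 0.18 and the GTPase gene NRAS changed by -0.15 (limma adjusted p = 0.00105 and 4.12e-04). The split was 7 higher and 3 lower with TMM scaling and 4 higher and 5 lower with equal FPKM totals.

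The feedback inhibitors of this relay were divided, with 4 of 11 tested genes higher and 3 lower. SPRED2, an inhibitor of RAF activation, gave 27.4, 27.5, 26.9 and 27.1 FPKM in LPS and 41.8, 43.7, 43.0 and 43.0 FPKM with 3-HPA (0.64, limma adjusted p = 2.52e-08). Within the Sprouty family, whose products block RAS activation, SPRY2 went from 104 to 141 FPKM (0.44, limma adjusted p = 8.52e-08) and SPRY4 from 9.20 to 11.2 (0.26, limma adjusted p = 2.45e-04), whereas SPRY1 went from 4.19 down to 2.62 FPKM (-0.52, limma adjusted p = 6.54e-05). ERRFI1, which binds and inhibits EGFR, stood at 0.871 and 1.12 FPKM and did not pass (limma adjusted p = 0.147).

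PDGFA (ENSG00000197461, chromosome 7, 497258 to 520296, minus strand), which encodes the A chain of PDGF, was higher with 3-HPA. The 250 bases upstream of a RefSeq start of this gene (GRCh38.p14, chr7:520227-520476, minus strand, the window nearest the gene's annotated 5′ end among 4) are shown because of the 7 windows of these genes it alone held a CArG box, the binding site of serum response factor, marked in capitals.
PDGFA: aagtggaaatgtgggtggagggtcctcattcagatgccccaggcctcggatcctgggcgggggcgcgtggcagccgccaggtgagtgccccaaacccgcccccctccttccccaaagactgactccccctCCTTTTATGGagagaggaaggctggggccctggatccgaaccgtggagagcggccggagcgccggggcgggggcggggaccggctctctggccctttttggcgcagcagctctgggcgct
The box began 120 bases upstream of the RefSeq start at which this window ends, and 1.16% of the 35116 windows held one. That RefSeq start lies inside the gene positions given above, so the box is nearer to the annotated 5′ end at 520296. No AP-1 site TGANTCA was found in the 7 windows (6.57% of all windows held one), and the NF-kB pattern (GGG and CC with any 5 bases between them, on either strand) was in those of AREG, HBEGF, TGFA and TGFB1, as in 54.4% of all windows. The part of these sites in the expression of the genes was not tested.

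LPS libraries 1 to 4 held 38.0, 39.5, 38.3 and 36.8 FPKM of PDGFA and 3-HPA libraries 1 to 4 held 62.1, 62.8, 62.7 and 62.7 FPKM. Values within each group were tight and the groups were far apart. The mean was 1.64-fold higher with 3-HPA, at 62.6 ± 0.348 against 38.2 ± 1.13 FPKM (SD, n = 4 each), or 0.70 on the log2 scale (SE 0.022, 95% interval 0.65 to 0.75, limma adjusted p = 3.30e-08, rank 217 of 12499).

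PDGFB (ENSG00000100311, chromosome 22, 39223359 to 39244751, minus strand), the B chain, did not reach the level needed for testing. It gave 0.407, 0.237, 0.215 and 0.191 FPKM in LPS libraries 1 to 4 and 0.240, 0.354, 0.365 and 0.302 FPKM in 3-HPA libraries 1 to 4, from 32 to 61 reads. LPS library 1 was the highest of all 8, and the groups overlapped. Voom on the recovered reads without a filter put the log2 change at 0.32 (adjusted p = 0.558, SE 0.28).

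Relatives and receptors of PDGF gave 1 higher and 3 lower among 6 tested genes. The receptor gene PDGFRA, at 1.29, 1.20, 1.09 and 1.28 FPKM in LPS and 1.79, 2.18, 2.13 and 2.24 FPKM with 3-HPA, rose by 0.48 (SE 0.060, limma adjusted p = 2.17e-04). PDGFRB lay below the filter at 0.280, 0.228, 0.321 and 0.311 and 0.522, 0.434, 0.491 and 0.601 FPKM, with no overlap, and passed when no filter was used (limma adjusted p = 0.0205, where 16.0% of all genes passed). The VEGF genes named by the rule were lower: VEGFA went from 43.4 to 33.6 FPKM (-0.36, limma adjusted p = 5.25e-06) and VEGFC, a lymphatic growth factor gene, from 157 to 127 FPKM (-0.30, limma adjusted p = 2.33e-05). PDGFRL, for a receptor-like protein, went from 2.58 to 1.04 FPKM (-0.81, limma adjusted p = 2.97e-06).

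**Figure D4:**
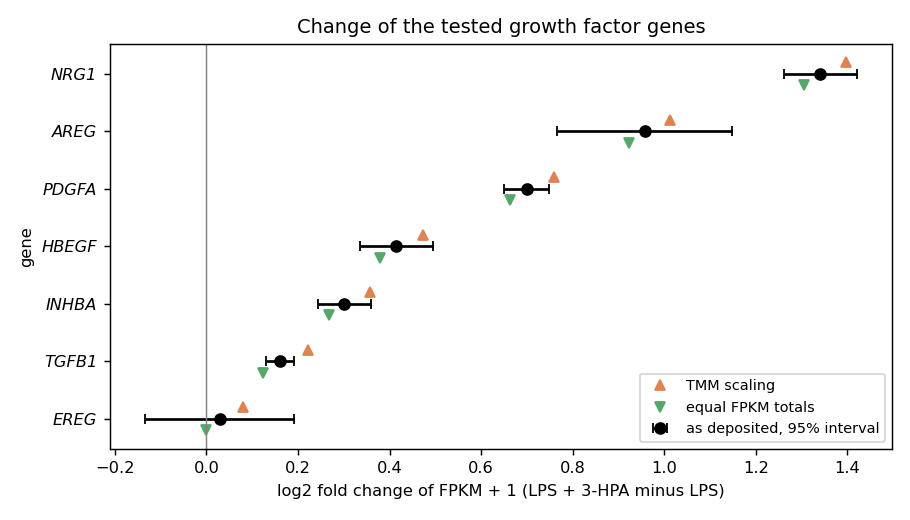
Log2 fold change of FPKM + 1 (x axis, LPS + 3-HPA minus LPS) of the 7 tested growth factor genes (y axis). Circles with bars are the values as deposited with 95% intervals, and triangles are the same change after TMM scaling or with equal FPKM totals. NRG1 at 1.34, AREG at 0.96, PDGFA at 0.70, HBEGF at 0.41, INHBA at 0.30 and TGFB1 at 0.16 stay above 0 under all 3 scalings, and the interval of EREG spans 0.

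TGFB1 (ENSG00000105329, chromosome 19, 41301587 to 41353911, minus strand) was the most abundant of the genes and rose by a small amount. LPS libraries 1 to 4 gave 238, 235, 240.3 and 239 FPKM and 3-HPA libraries 1 to 4 gave 268, 264, 270.0 and 263 FPKM. No 3-HPA library fell within the range of the LPS libraries. The means of 238 ± 2.14 and 266 ± 3.30 FPKM (SD, n = 4 each) differed 1.12-fold, or 0.16 on the log2 scale (SE 0.014, 95% interval 0.13 to 0.19, limma adjusted p = 1.65e-05, rank 2060 of 12499). The gene overlaps HNRNPUL1, CCDC97 and TMEM91 on the opposite strand, and the sources used here do not say whether counting used strand. HNRNPUL1 stood at 50.2 and 51.0 FPKM, TMEM91 at 0.940 and 1.10 FPKM, and CCDC97 went from 20.4 to 17.4 FPKM (log2 fold change -0.22, limma adjusted p = 0.00186), so none of them passed as higher.

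INHBA (ENSG00000122641, chromosome 7, 41667168 to 41705834, minus strand), which encodes the chain that makes activin A, was moderately higher. Values were 10.2, 10.1, 9.83 and 10.1 FPKM in LPS libraries 1 to 4 and 12.2, 12.9, 12.6 and 12.8 FPKM in 3-HPA libraries 1 to 4. Again the groups did not overlap. Means were 10.1 ± 0.170 and 12.6 ± 0.312 FPKM (SD, n = 4 each), 1.26-fold, or 0.30 on the log2 scale (SE 0.025, 95% interval 0.24 to 0.36, limma adjusted p = 1.53e-05). Its antisense gene INHBA-AS1 was at most 0.291 FPKM in any library.

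Other ligands of this superfamily and the proteins that hold them moved in both directions, with 3 of 8 tested genes higher and 4 lower. TGFB3, a close relative of TGFB1, gave 1.68, 1.43, 1.38 and 1.22 FPKM in LPS and 4.16, 3.75, 4.04 and 3.55 FPKM with 3-HPA, 2.72-fold higher (1.01, SE 0.067, limma adjusted p = 3.08e-06). In contrast INHBE, for the activin beta E chain, gave 8.33, 8.50, 8.69 and 7.18 FPKM in LPS and 2.66, 2.96, 3.27 and 3.03 FPKM with 3-HPA, 2.74-fold lower (-1.20, SE 0.065, limma adjusted p = 8.27e-07). The 2 inhibin beta chains named here thus differed in direction, with no overlap between groups in either. LTBP2, for a matrix protein related to the latent TGF-beta binding proteins, rose by 0.73 and NRROS, which tethers latent TGF-beta 1 on myeloid cells, changed by -0.34 (limma adjusted p = 4.31e-06 and 5.76e-05). FST, for the activin antagonist follistatin, gave 2.92, 2.99, 2.97 and 2.41 FPKM in LPS and 2.62, 2.01, 1.91 and 2.06 FPKM with 3-HPA. Its groups overlapped through LPS library 4 (2.41 FPKM) and 3-HPA library 1 (2.62 FPKM), and its log2 fold change was -0.28 (limma adjusted p = 0.0197). That call was lost without a filter (adjusted p = 0.0561) and on leaving out library 2 or library 3 of either group (adjusted p from 0.0506 to 0.0527).

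Genes for activation and processing of TGF-beta gave 3 higher and none lower of 6 tested. FURIN, the protease that cleaves the TGF-beta and activin precursors, gave 93.2, 95.8, 94.4 and 95.8 FPKM in LPS and 216, 222, 225 and 227 FPKM with 3-HPA. The groups were far apart, with a 2.35-fold difference of the means (log2 fold change 1.22, SE 0.018, limma adjusted p = 2.21e-09). THBS1, for thrombospondin 1, which can activate latent TGF-beta, went from 0.681 to 1.78 FPKM (0.72, limma adjusted p = 1.43e-05), and the related protease gene PCSK6 from 0.492 to 0.732 FPKM (0.21, limma adjusted p = 0.0115).

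Of 10 tested receptor genes of the superfamily, 3 were higher and 4 lower. ENG, for the co-receptor endoglin, gave 21.2, 20.9, 21.6 and 22.1 FPKM in LPS and 36.3, 38.7, 37.9 and 37.4 FPKM with 3-HPA (0.78, SE 0.025, limma adjusted p = 4.14e-08). The activin receptor gene ACVR2A went from 5.20 to 3.71 FPKM (-0.40, limma adjusted p = 2.19e-04), BMPR2 from 6.46 to 4.82 (-0.36, limma adjusted p = 7.75e-05) and ACVRL1 from 3.93 to 2.93 FPKM (-0.33, limma adjusted p = 3.73e-04). The TGF-beta receptor genes did not pass: TGFBR1 stood at 4.19 and 3.73 FPKM (limma adjusted p = 0.0853) and TGFBR2 at 4.54 and 4.61 FPKM (limma adjusted p = 0.725). With equal FPKM totals TGFBR1 passed as lower (-0.16, limma adjusted p = 0.0418).

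Among 15 genes for SMADs and their repressors, 3 were higher, 4 lower and 8 did not pass. SMAD7, an inhibitory SMAD that TGF-beta induces, went from 37.5 to 48.9 FPKM (0.37, limma adjusted p = 2.13e-05), and its partner ubiquitin ligase gene SMURF2 from 4.09 to 4.88 FPKM (0.21, limma adjusted p = 0.00193). SMAD3, for a transducer of TGF-beta and activin, changed by 0.16 (limma adjusted p = 0.0139) and TGIF1, for a SMAD corepressor, by -0.24 (limma adjusted p = 1.55e-05). The count of 4 lower was 1 with TMM scaling, 1 with quantile normalisation, 1 without LPS library 2 and 2 without 3-HPA library 4. With equal FPKM totals it was 6. In each of these alternatives 3 were higher.

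The IGF axis, tested in 9 genes, gave 1 higher and 4 lower. Its receptor genes IGF1R (0.626 and 0.683 FPKM) and INSR (15.2 and 15.4 FPKM) did not pass (limma adjusted p = 0.566 and 0.57). INSR passed as higher with TMM scaling (0.074, limma adjusted p = 0.0213). IGFBP4, for an IGF-binding protein, gave 12.2, 11.8, 11.1 and 10.5 FPKM in LPS and 4.88, 5.48, 5.31 and 4.37 FPKM with 3-HPA (-1.05, limma adjusted p = 2.37e-06). IGFBP7 changed by -0.39 and IGFBP3 by 0.14 (limma adjusted p = 0.00216 and 0.00134). IGF2R, the scavenger receptor of IGF2, changed by -0.10 (limma adjusted p = 0.00121), a call lost with TMM scaling (adjusted p = 0.0788). With TMM scaling the list gave 2 higher and 3 lower.

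Of 10 other secreted growth factor genes tested, 3 were higher and 6 lower. LIF, for an IL-6 family cytokine, gave 2.60, 2.55, 2.52 and 2.44 FPKM in LPS and 5.54, 4.81, 5.56 and 5.39 FPKM with 3-HPA (0.84, SE 0.046, limma adjusted p = 8.90e-07), and the bone morphogenetic protein gene BMP2 went from 1.31 to 2.60 FPKM (0.64, limma adjusted p = 6.80e-05). GDF15, for a stress-induced TGF-beta relative, changed by -0.74 and GRN, for progranulin, by -0.41 (limma adjusted p = 2.24e-08 and 5.89e-08). Over the 12 lists together, 131 of 134 genes had a row and 99 were tested, with 29 higher, 32 lower and 38 not passing. Of all tested genes 15.7% were higher and 28.0% lower. The median change of the 99 was -0.023, beside -0.047 for all tested genes. With TMM scaling the same lists gave 35 higher and 27 lower, where 20.8% of all tested genes were higher and 20.2% lower.

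**Figure D5:**
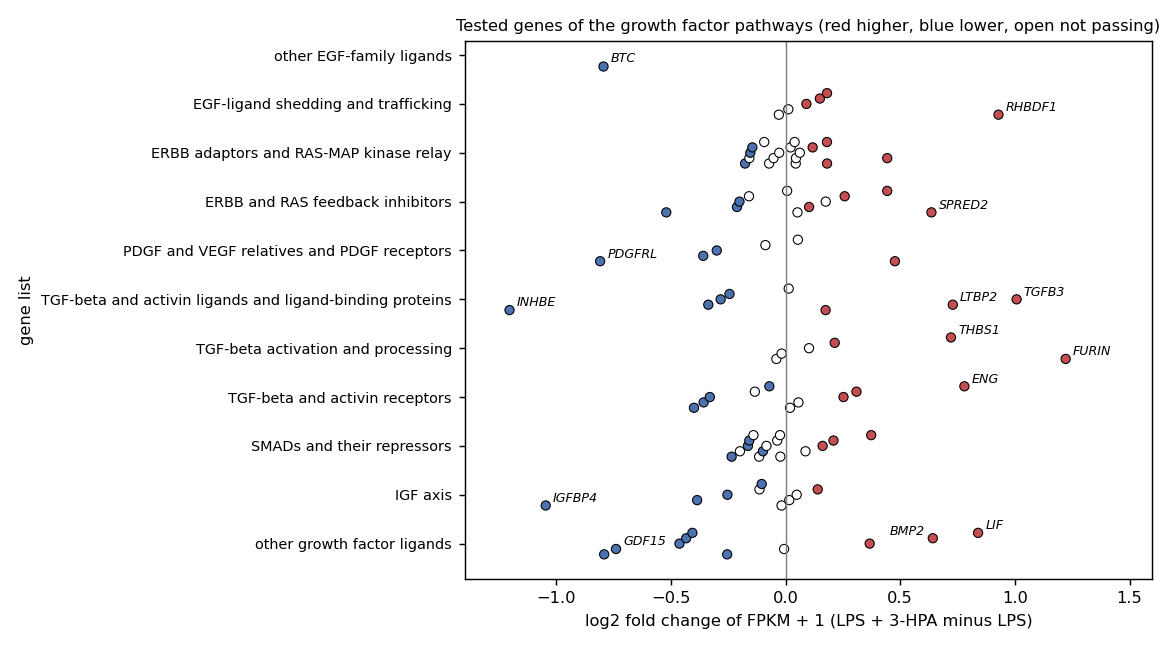
Log2 fold change of FPKM + 1 (x axis, LPS + 3-HPA minus LPS) of each tested gene in the growth factor pathway lists (y axis; ERBB receptors had no tested gene). Red circles are genes higher and blue circles genes lower at a limma adjusted p under 0.05, open circles did not pass, and some of the genes named in the text are labelled. FURIN at 1.22, TGFB3 at 1.01 and RHBDF1 at 0.93 lie farthest to the right, and INHBE at -1.20 and IGFBP4 at -1.05 farthest to the left.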

How the data were processed

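RNA-seq was deposited as 1 table of FPKM for 8 THP-1 libraries, 4 per group. Per the labels' protocols RNA was taken with TRIzol and libraries were made with a VAHTS Universal V6 kit. Per the submitters' processing notes the authors used fastp 0.22.0, HISAT2 2.1.0 and featureCounts on GRCh38; the sources used here give neither the annotation release nor strandedness.

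Library totals, gene lengths and reads were recovered by searching for values that make every FPKM a whole number of reads (within 0.01); gene lengths of GENCODE 29 guided the search, and gene positions come from it. PCR duplicates and alignment errors are not covered by the intervals and tests. Symbols came from a table of gene names (30221 identifiers matched, 12 without a name). The planned test for FPKM was used: limma 3.58.1 (R 4.3.3) with a mean-variance trend on log2(FPKM + 1), at least 0.5 FPKM in at least 4 libraries, two-sided, Benjamini-Hochberg over all genes tested, threshold 0.05, with no replicate block. Shares used exact permutation tests. The fit and the read recovery were tested on simulated data.

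The genes, lists and tests were chosen with earlier results of these data known. Genes named were the 10 growth factor genes, 16 pathway genes whatever their values, up to 4 genes per list with the smallest p among those with an adjusted p under 0.05, and the tested genes within 1 Mb of AREG or EREG. 1 gene that this rule selects is not reported here. Promoter windows came from RefSeq, for 7 of the 10 genes; HBEGF, TGFA, TGFB1 and INHBA were searched and not printed. The planned comparison of EGF domains was not run, since protein sequences were not used here. Alternatives were a higher filter of 1 FPKM or none, pseudocounts of 0.5 and 0.1, quantile normalisation, TMM scaling (with factors computed by hand), rescaling to equal FPKM totals, a replicate block, voom on recovered reads, and leaving out each library. Voom without a filter and the AREG to EREG ratio were added after seeing the data. Tables were handled with pandas 2.3.3 and numpy 2.4.6 in Python 3.11.15, and figures drawn with matplotlib 3.10.9.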

Additional observations from a re-analysis of the deposited data

Results flagged for a closer look

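In 9 of 144 groups of 4 libraries examined, 1 library stood apart from the other 3 by more than Dixon's critical value at the 95% level, and chance flags about 1 group in 20. Among the growth factor genes, 3-HPA library 4 had 15.3 FPKM of AREG beside 17.1 to 17.4 in the others, and 3-HPA library 1 had 62.1 FPKM of PDGFA beside 62.7 to 62.8. The HBEGF share of EGF-family ligand FPKM was 49.9% in LPS library 3 and 52.4 to 52.6% in the others. Of the pathway genes, LPS library 2 held 5.01 FPKM of ACVR2A (5.26 to 5.27 in the others) and 15.5 FPKM of INSR (15.06 to 15.10). LPS library 3 held 27.5 FPKM of IGF2R (28.1 to 28.2), and LPS library 4 held 2.41 FPKM of FST (2.92 to 2.99). With 3-HPA, library 2 held 15.1 FPKM of ADAM10 (14.6 to 14.7) and library 3 held 0.939 FPKM of PDGFRL (1.06 to 1.09). Without 3-HPA library 4 the log2 fold change of AREG was within the range of 0.88 to 1.02 found on leaving out each library, and its call was kept.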

How the results depend on the processing

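NRG1, AREG, PDGFA, HBEGF, INHBA and TGFB1 kept their direction and their call under all 17 alternatives. Leaving out each library gave log2 fold changes of 1.32 to 1.36 for NRG1, 0.88 to 1.02 for AREG, 0.68 to 0.72 for PDGFA, 0.38 to 0.44 for HBEGF, 0.29 to 0.32 for INHBA, 0.15 to 0.17 for TGFB1 and -0.017 to 0.086 for EREG. EREG, which passed under no alternative, changed sign with equal FPKM totals (-0.0015) and without LPS replicate 2 (-0.017). The differences of mean log2(FPKM + 1) of the untested TGFA and PDGFB ranged from 0.14 to 0.18 and from 0.034 to 0.11. Leaving out each library moved the shares of EGF-family ligand FPKM by 3.03 to 4.37 points for AREG, -4.42 to -3.75 for EREG, -11.4 to -10.5 for HBEGF, -0.174 to -0.0556 for TGFA and 11.0 to 11.8 for NRG1. Without LPS replicate 3 the AREG share (4.37 points) and the TGFA share (-0.174 points) had an exact permutation p of 0.0286. The other 7 of 8 leave-outs kept the result of all libraries for both shares, with an exact permutation p of up to 0.0857 for AREG and 0.514 for TGFA. The cause was not tested. The log2 AREG to EREG ratio differed by 0.95 to 1.08. Over all genes 1794 to 1833 were higher and 3115 to 3218 lower on leaving out each library, and 1686 to 2596 higher and 2521 to 4240 lower under the other alternatives. Over the pathway lists these were 28 to 29 higher and 27 to 33 lower, and 27 to 35 and 27 to 39. Same-numbered libraries of the groups showed no clear shared deviation (correlations of -0.023 to 0.089, and 2 of 8 libraries correlated best with their own number). With 4 libraries per group this cannot exclude that a number marks a shared culture or day, and no label says so. With the replicate block 1854 genes were higher and 3220 lower, and no growth factor call changed. TGFA rested on 58 to 108 and PDGFB on 32 to 61 reads per library, the lowest depth of the 9 growth factor genes with a row; the part of depth in their adjusted p-values was not tested.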
